A study of Arabidopsis thaliana with 75 samples.

Results

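The jasmonate arm of the plant immune response is described here through 9 Arabidopsis thaliana genes, out of 32844 gene loci in the count tables. The genes were chosen by name and locus identifier and not by a measured value, though with earlier results of these data known. They are the transcription factor MYC2 (AT1G32640), the NAC-domain factors ANAC019 (AT1G52890), ANAC055 (AT3G15500) and ANAC072 (AT4G27410), and the output genes VSP1 (AT5G24780), VSP2 (AT5G24770), TAT3 (AT2G24850), CORI3 (AT4G23600) and CLH1 (AT1G19670). All 9 were found in both mRNA tables and in the GMUCT tables, and all 9 passed the filters on low values in each.

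In this pathway, jasmonoyl-isoleucine, the active form of jasmonate, joins the receptor COI1 to JAZ repressors, which are then degraded and release MYC2, a bHLH activator. Coronatine, a toxin of Pseudomonas syringae, acts as a mimic of the hormone. MYC2 is known to activate the 3 NAC genes, whose products repress the salicylic acid synthesis gene ICS1, and the storage and wound genes known as jasmonate outputs. N6-methyladenosine (m6A) is a mark on mRNA that the writer subunit MTA helps to place and the demethylase ALKBH10B removes.

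Seedlings were 14 days old, of wild type Col-0, of the mta line of the writer subunit, or of 35SALKBH10B, which overexpresses the demethylase from a strong viral promoter. They were either untreated or exposed for 4 h to 1 µM flg22, a peptide of bacterial flagellin that pattern receptors sense. Leaves were from 4-week-old Col-0 and mta plants, infiltrated with bacteria according to the treatment protocol, and their titles give 00 or 24 with no unit. The titles abbreviate the bacterium as Pst and the design text names another pathovar, P. syringae maculicola, while the treatment tag of some leaf samples names flg22. The leaf groups are therefore called 00 and 24 throughout. Each group had 3 libraries. The labels do not say how the mta line was made, nor whether replicates came from separate cultures or plants. A p-value here therefore speaks only of the spread between the sequenced samples, which may be technical. Labels of untreated seedlings give 4 h for mRNA but the start for GMUCT and m6A, so flg22 contrasts in those 2 assays may include 4 h of time.

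Library totals in gene loci ran from 9442047 to 13222937 reads in seedling mRNA, 20467621 to 44052628 in leaf mRNA and 3107893 to 41465534 in GMUCT, which sequences the 5′ ends of uncapped and cleaved transcripts. MTA had 0 mRNA counts in every library, so mRNA does not check the mta labels. Its uncapped RNA stood at 21.3 ± 2.75 RPM (reads scaled to the library total; SD, n = 3) in untreated Col-0 and at 9.86 ± 0.189 in untreated mta. The summed leaf markers stood at 10233 to 11210 CPM (counts scaled to the library total) in untreated and 6481 to 7811 CPM in flg22-treated Col-0 seedlings, and within 16132 to 65363 CPM over all leaf libraries, while LHCB1.1, one of the 5, was at 0 in every library. Summed root markers were 0.106 to 0.875 CPM in Col-0 leaves at 00 and 26.3 to 122 CPM at 24, where BGLU23 carried the sum and 4 of 6 markers were at 0. In whole seedlings and leaves, fewer cells of a type and less RNA per cell cannot be told apart.

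MYC2, the activator at the head of the group, lies on chromosome 1 from 11798119 to 11801407 on the minus strand in TAIR10. In Col-0 seedlings its mRNA stood at 132, 138 and 142 CPM untreated and at 139, 121 and 137 CPM after flg22. The groups overlapped, and the log2 fold change of −0.04 ± 0.08 (SE) did not pass the test (edgeR quasi-likelihood, Benjamini-Hochberg adjusted p = 0.646; 95% interval −0.20 to 0.11). In mta seedlings the values were 112, 109 and 107 CPM untreated and 118, 114 and 110 CPM after flg22. Every mta library was thus below every Col-0 library of the same treatment. MYC2 was lower in untreated mta by a log2 fold change of −0.32 ± 0.08 (adjusted p = 0.00130) and lower under flg22 by −0.21 ± 0.08 (adjusted p = 0.0298). The second call was lost without mta flg22 replicate 2 or 3 (adjusted p up to 0.101). The locus AT1G32630 covers 98.5% of MYC2 on the other strand, and its seedling count ran at 89.5% to 107% of that of MYC2. Seedling counts do not separate the strands, so reads of the 2 loci cannot be told apart there.

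**Figure D1:**
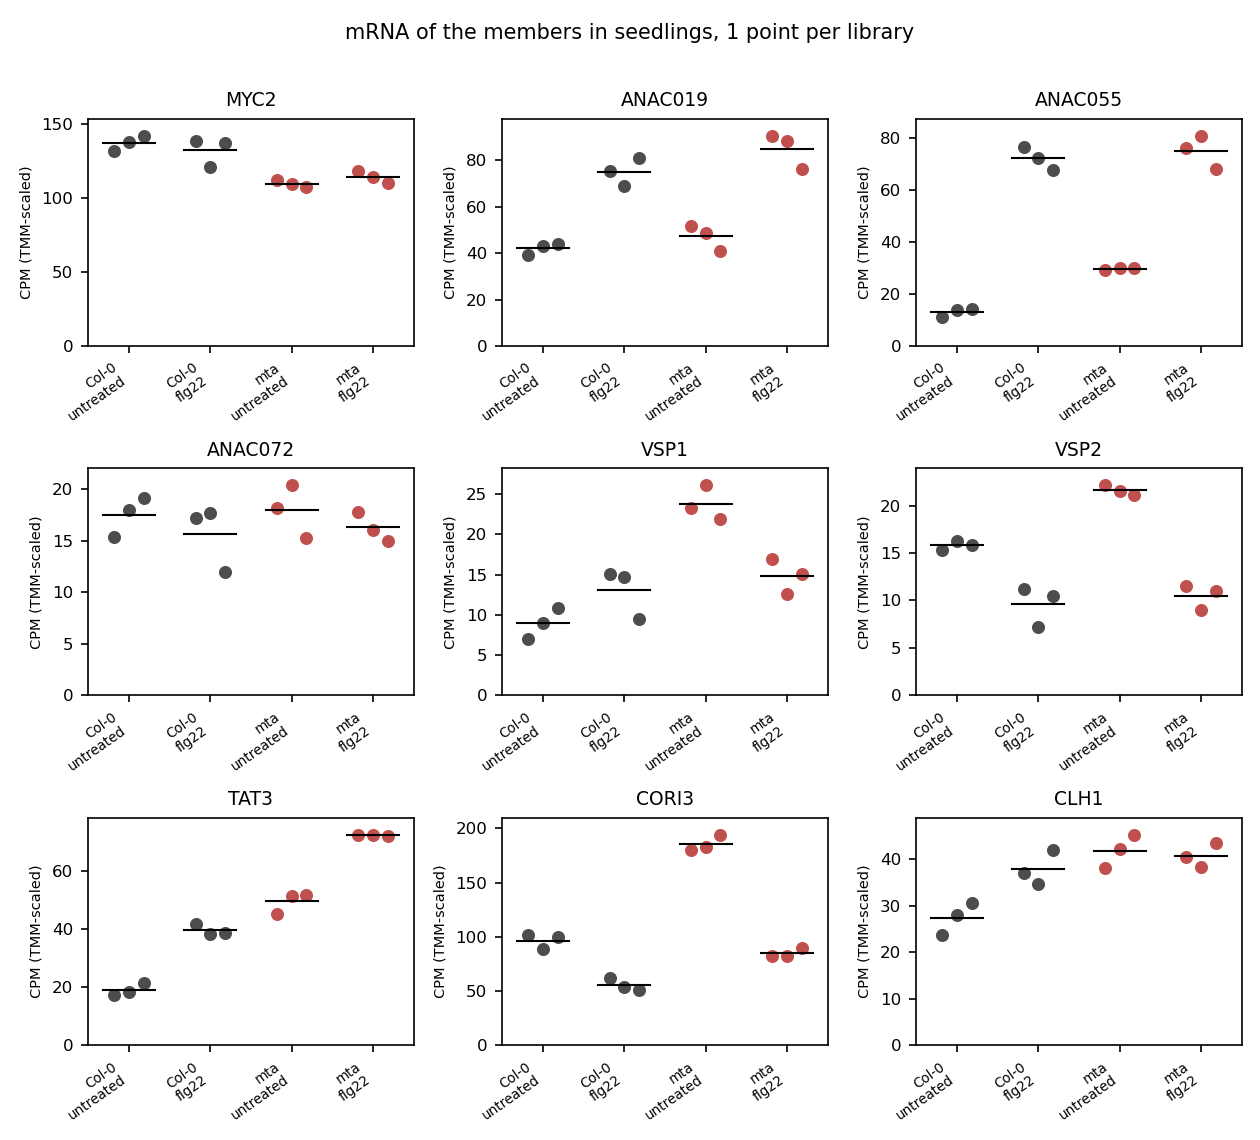
mRNA of the 9 genes in seedlings, in TMM-scaled CPM on linear axes from 0, 1 panel per gene, for Col-0 and mta, untreated and after flg22; points are libraries and bars are group means of 3. ANAC055 moved from 11.1 to 14.0 CPM up to 67.9 to 76.7 CPM in Col-0, while MYC2 stayed between 107 and 142 CPM over all 12 libraries.

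The NAC factors differed from one another in seedlings. ANAC055, a NAC activator on chromosome 3 (5234457 to 5236196, plus strand), stood at 11.1, 13.9 and 14.0 CPM in untreated Col-0 and at 76.7, 72.5 and 67.9 CPM after flg22. It rose 5.57-fold, a log2 fold change of 2.49 ± 0.12 (edgeR adjusted p = 2.29e-20), with the groups far apart. In mta it stood at 29.2, 30.0 and 29.9 CPM untreated and 76.3, 81.0 and 68.0 CPM after flg22. Untreated mta libraries were all above untreated Col-0 (log2 fold change 1.199 ± 0.12, adjusted p = 3.16e-10), while the flg22-treated groups overlapped (0.05 ± 0.10, adjusted p = 0.727; 95% interval −0.15 to 0.26). The rise with flg22 in mta was 2.53-fold (1.34 ± 0.11, adjusted p = 5.00e-13), and the difference between the 2 rises passed the test of the interaction (−1.15 ± 0.16, adjusted p = 4.84e-07). Antisense features within ANAC055 held 21.9% to 37.7% and 42.8% to 67.5% of its seedling count.

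ANAC019, the closest relative of ANAC055 and a gene with no overlapping feature (chromosome 1, 19696923 to 19698482, minus strand), stood at 39.4, 42.9 and 44.0 CPM untreated and 75.4, 68.9 and 81.2 CPM after flg22 in Col-0. Its mta values were 51.8, 48.7 and 41.0 CPM, and 90.7, 88.2 and 76.3 CPM. The treated libraries lay above the untreated ones in each line. ANAC019 rose by 0.84 ± 0.10 on the log2 scale in Col-0 (adjusted p = 6.18e-09) and by 0.86 ± 0.10 in mta (adjusted p = 7.39e-09). No difference between lines passed for ANAC019, and the interaction was 0.01 ± 0.15 with a 95% interval of −0.27 to 0.30.

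ANAC072, also known as RD26 and induced by drought and abscisic acid (chromosome 4, 13707192 to 13709170, minus strand), lay between 12.01 and 20.4 CPM over all 12 seedling libraries. None of its 5 seedling comparisons passed, and its groups overlapped in each pair. An antisense feature within it held 64.7% to 98% of its seedling count.

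Among the outputs, the 2 vegetative storage protein genes went different ways with flg22 in Col-0. VSP1 (chromosome 5, 8507590 to 8509201, minus strand) encodes a vegetative storage protein of the acid phosphatase family. It stood at 7.03, 8.98 and 10.9 CPM untreated and 15.1, 14.8 and 9.52 CPM after flg22 in Col-0. The third treated library lay inside the untreated range, and the log2 fold change was 0.57 ± 0.19 (edgeR adjusted p = 0.00939). This call was lost without Col-0 untreated replicate 1 (adjusted p = 0.0821). In mta the order was turned, with 23.2, 26.1 and 21.9 CPM untreated and 16.997, 12.6 and 15.04 CPM after flg22. VSP1 was higher in untreated mta than in untreated Col-0 by 1.42 ± 0.18 (adjusted p = 7.08e-08) and fell with flg22 in mta by 0.67 ± 0.18 (adjusted p = 0.00205). The interaction of −1.24 ± 0.26 passed (adjusted p = 0.000367), while under flg22 the lines were not told apart (0.18 ± 0.18, 95% interval −0.18 to 0.54).

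VSP2, its neighbour and close relative (8499621 to 8502224, minus strand), stood at 15.3, 16.3 and 15.9 CPM untreated and 11.2, 7.22 and 10.5 CPM after flg22 in Col-0. It stood at 22.1, 21.5 and 21.1 CPM and at 11.6, 9.01 and 10.99 CPM in mta. Treated libraries were below untreated ones in both lines. VSP2 fell by 0.70 ± 0.17 on the log2 scale in Col-0 (adjusted p = 0.000703) and by 1.03 ± 0.17 in mta (adjusted p = 3.72e-06). It was higher in untreated mta (0.45 ± 0.16, adjusted p = 0.0278), a call that was lost on leaving out any 1 of the 6 libraries of these groups (adjusted p up to 0.0843). Reads that match both VSP genes could have been lost or split in counting, which was not tested.

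TAT3, a tyrosine aminotransferase (chromosome 2, 10582074 to 10585216, minus strand), rose in both lines. It stood at 17.2, 18.4 and 21.3 CPM untreated and 41.8, 38.3 and 38.6 CPM after flg22 in Col-0, and at 45.1, 51.4 and 51.8 CPM and 72.4, 72.2 and 72.0 CPM in mta. The untreated mta libraries were already above the flg22-treated Col-0 libraries. The log2 fold change with flg22 was 1.07 ± 0.11 in Col-0 (adjusted p = 2.20e-10) and 0.55 ± 0.10 in mta (adjusted p = 3.54e-05), an interaction of −0.52 ± 0.15 (adjusted p = 0.0126). mta exceeded Col-0 by 1.39 ± 0.11 untreated (adjusted p = 1.18e-12) and by 0.87 ± 0.11 under flg22 (adjusted p = 2.85e-08).

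CORI3, a coronatine-induced cystine lyase with no overlapping feature (chromosome 4, 12310379 to 12313212, plus strand), fell in both lines. Col-0 libraries stood at 101, 88.8 and 99.5 CPM untreated and 62.3, 53.9 and 50.5 CPM after flg22. The mta libraries stood at 180.0, 183 and 194 CPM and at 82.4, 82.0 and 89.9 CPM. CORI3 fell by 0.79 ± 0.09 in Col-0 (adjusted p = 8.91e-10) and by 1.13 ± 0.09 in mta (adjusted p = 1.01e-13). It was higher in mta by 0.95 ± 0.08 untreated (adjusted p = 1.57e-11) and by 0.61 ± 0.09 under flg22 (adjusted p = 9.73e-07). Its interaction of −0.34 ± 0.12 (adjusted p = 0.0458) was lost without a filter on low counts (adjusted p = 0.0510) and in 8 of 12 fits that left out 1 library (adjusted p up to 0.144).

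CLH1, the coronatine-induced chlorophyllase (chromosome 1, 6803486 to 6805092, minus strand), stood at 23.7, 28.1 and 30.6 CPM untreated and 37.1, 34.7 and 42.1 CPM after flg22 in Col-0. In mta it stood at 38.2, 42.1 and 45.3 CPM and at 40.5, 38.4 and 43.5 CPM, so only the untreated Col-0 libraries lay apart. CLH1 rose by 0.48 ± 0.12 in Col-0 (adjusted p = 0.000991), was higher in untreated mta by 0.62 ± 0.12 (adjusted p = 9.71e-05), and did not pass in mta with flg22 (−0.03 ± 0.12, 95% interval −0.27 to 0.20). The interaction of −0.51 ± 0.17 (adjusted p = 0.0295) was lost in 6 of 12 fits that left out 1 library (adjusted p up to 0.106).

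Counted over the group, flg22 changed 7 of 9 genes in Col-0 seedlings, 5 up and 2 down, where 58.7% of the 19887 genes tested were called, 27.9% up and 30.7% down. In mta it changed 6 of 9, 3 up and 3 down, against 42.2% of genes, 22% up and 20.2% down. Untreated mta differed from Col-0 in 7 of 9, with 6 higher and only MYC2 lower, against 33.1%. All 5 outputs were among the higher genes, where 18.1% of all genes were called higher and 15% lower. Under flg22 the lines differed in 3 of 9, TAT3 and CORI3 higher and MYC2 lower in mta, against 38% of genes, 18.1% higher and 19.9% lower. The difference between the flg22 responses passed for 5 of 9, all negative, against 19.1% of genes in either direction and 12.2% negative. These comparisons share libraries, since one set of untreated mta values enters 3 of them.

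Other genes of the pathway in seedlings are given from lists of known function. Of 12 JAZ repressors, flg22 raised 9 and lowered 1 in Col-0, with a median log2 fold change of 0.71 beside −0.10 over all genes. Among all genes tested, 27.9% were called up and 30.7% down. JAZ9 (1.24 ± 0.10) and JAZ1 (1.202 ± 0.08) rose and JAZ7 fell (−1.06 ± 0.19). Of 13 jasmonate synthesis genes, 9 rose and 2 fell (median 0.44), with the lipoxygenase LOX4 at 1.92 ± 0.08, the allene oxide cyclase AOC1 at 1.90 ± 0.09 and the reductase OPR3 at 1.097 ± 0.09. All 5 genes of the ethylene-linked ERF branch, which MYC2 is known to oppose, rose (median 0.76), with the defensin PDF1.2A at 1.74 ± 0.10 and its activator ORA59 at 1.42 ± 0.18. The 4 ATAF-type NAC genes all rose (median 1.24), with ANAC102 at 1.70 ± 0.08. ICS1, the salicylic acid synthesis gene that the NAC factors are known to repress, rose as well (1.85 ± 0.11, edgeR adjusted p = 4.72e-17).

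In mta seedlings flg22 raised 5 of 12 JAZ genes and lowered 0 (median 0.16 beside −0.02 over all genes), and raised 6 and lowered 3 of 13 synthesis genes (median 0.14). LOX2, the lipoxygenase of wounded leaves, fell (−1.12 ± 0.07). In untreated mta 7 synthesis genes were higher and 3 lower than in Col-0 (median 0.30 beside 0.02), with LOX2 at 1.13 ± 0.07, while of the JAZ genes 2 were higher and 2 lower. Of the 4 genes related to the outputs, the acetyltransferase gene NATA1 was higher by 2.40 ± 0.12 in untreated mta. Under flg22, 6 JAZ genes, 7 synthesis genes and 3 ERF-branch genes were lower in mta, and 0, 2 and 0 were higher. The interaction was negative for 8 of 13 synthesis genes and positive for 0, led by AOC1 (−1.76 ± 0.13) and LOX4 (−1.44 ± 0.11). It was also negative for all 4 ATAF-type NAC genes, led by ANAC032 (−1.40 ± 0.21), and for PDF1.2A (−1.98 ± 0.14). Among all genes tested, 22% were called up and 20.2% down with flg22 in mta. Untreated mta had 18.1% called higher and 15% lower than Col-0. Under flg22 18.1% were higher and 19.9% lower in mta, and the interaction was negative for 12.2%.

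In leaves, the 9 genes were all higher at 24 than at 00 in Col-0, where 68.3% of the 18824 genes tested were called and 35.6% were called higher. MYC2 stood at 14.3, 21.97 and 19.6 CPM at 00 and 507, 423 and 503.6 CPM at 24, a 25.6-fold rise (log2 fold change 4.67 ± 0.42, edgeR adjusted p = 1.97e-06). Its overlapping locus AT1G32630 held 1.99% to 28.2% of its count in leaves. In mta, MYC2 stood at 66.1, 18.0 and 27.8 CPM at 00 and 289, 408 and 363 CPM at 24 (3.24 ± 0.40, adjusted p = 4.13e-05), or 3.95 without the first library at 00. The first mta library at 00 stood apart from the other two, here and for the NAC genes.

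ANAC019 stood at 3.73, 2.56 and 2.23 CPM at 00 and at 220.4, 134 and 144 CPM at 24 in Col-0, a log2 fold change of 5.86 ± 0.76 (adjusted p = 3.15e-05). In mta its values were 58.5, 7.20 and 9.51 CPM at 00 and 244, 205 and 157 CPM at 24 (3.01 ± 0.65, adjusted p = 0.00207), a rise of 4.60 without mta 00 replicate 1. All mta libraries at 00 were above those of Col-0, by 3.15 ± 0.69 (adjusted p = 0.00643). Without mta 00 replicate 1 that difference was 1.56 (adjusted p = 0.00374).

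ANAC055 had the smallest log2 change of the NAC genes in Col-0 leaves. It stood at 3.18, 3.08 and 2.20 CPM at 00 and 18.0, 7.39 and 11.1 CPM at 24 in Col-0 (2.0998 ± 0.62, adjusted p = 0.0104). In mta it stood at 33.1, 3.93 and 8.42 CPM at 00 and 30.1, 23.8 and 23.1 CPM at 24, groups that overlapped (0.76 ± 0.58, adjusted p = 0.276). That result rests on the first library: without it the rise in mta was 2.06 (adjusted p = 0.000715), and with the replicate number as a block it was 1.11 (adjusted p = 0.0477). At 24 the mta values were above those of Col-0, by 1.097 ± 0.58 (adjusted p = 0.182), 1.21 with the block (adjusted p = 0.0499) and 1.09 without that library (adjusted p = 0.0190). ANAC055 at 00 was higher in mta by 2.44 ± 0.63 (adjusted p = 0.0145), by 1.14 without mta 00 replicate 1 (adjusted p = 0.0483), and did not pass without Col-0 00 replicate 3 (adjusted p = 0.0531).

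ANAC072 stood at 23.03, 31.3 and 25.1 CPM at 00 and 190.4, 148 and 174 CPM at 24 in Col-0, and at 109, 26.7 and 38.4 CPM and 153, 136 and 141 CPM in mta. Every library at 24 exceeded every library at 00 of its line. The rise was 2.68 ± 0.41 in Col-0 (adjusted p = 0.000121) and 1.31 ± 0.39 in mta (adjusted p = 0.0136), the latter 2.14 without mta 00 replicate 1 and lost without mta 00 replicate 3 (adjusted p = 0.0590). At 00 the difference of 1.15 ± 0.39 between the lines (adjusted p = 0.0482) was 0.31 without mta 00 replicate 1 (adjusted p = 0.224).

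**Figure D2:**
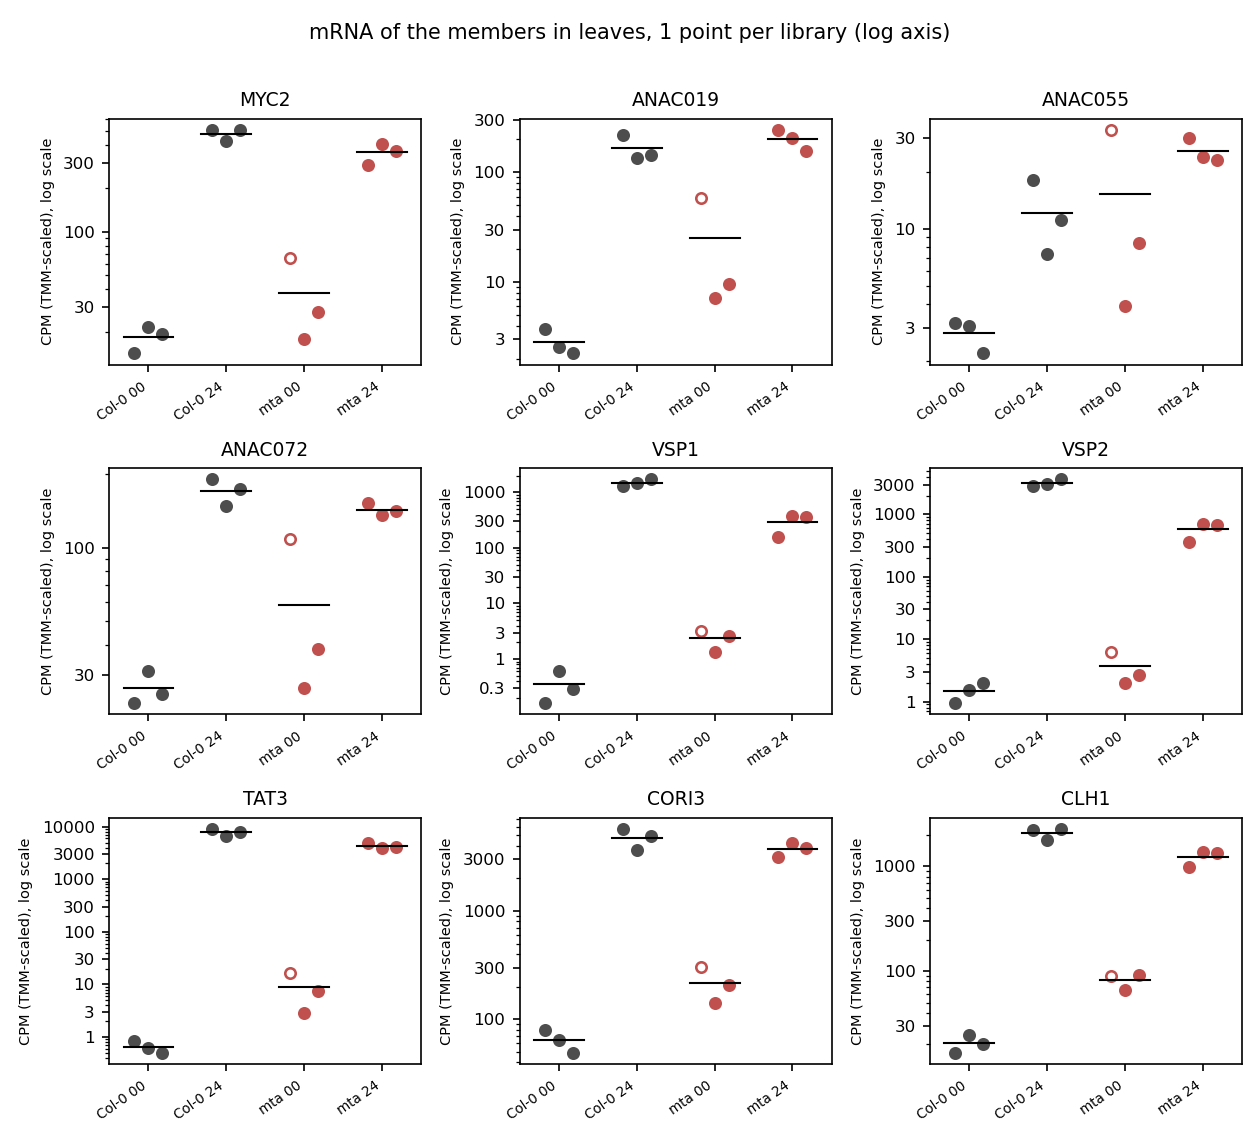
mRNA of the 9 genes in leaves, in TMM-scaled CPM on a log axis, for Col-0 and mta at 00 and 24; points are libraries, bars are means of 3, and the open circle is mta 00 replicate 1. VSP1 spans 0.161 to 1705 CPM and TAT3 0.503 to 9008 CPM in Col-0.

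The outputs rose by 6.20 to 13.55 on the log2 scale in Col-0 leaves, beside 2.0998 to 5.86 for the factors. VSP1 stood at 0.161, 0.609 and 0.291 CPM at 00 and 1281, 1489 and 1705 CPM at 24 in Col-0, a log2 fold change of 12.08 ± 0.59 (edgeR adjusted p = 2.61e-08). The counts behind the low values were 7 to 20 reads a library. In mta VSP1 stood at 3.17, 1.35 and 2.57 CPM at 00 and 155, 378 and 361 CPM at 24 (6.98 ± 0.47, adjusted p = 6.86e-07). The mta libraries were thus all above Col-0 at 00 (2.79 ± 0.52, adjusted p = 0.00314) and all below it at 24 (−2.30 ± 0.37, adjusted p = 0.00113). The interaction was −5.10 ± 0.63 (adjusted p = 0.00153), and −4.83 without mta 00 replicate 1.

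VSP2 stood at 0.944, 1.52 and 2.01 CPM at 00 (41 to 76 reads a library) and 2820.2, 3110.0 and 3613 CPM at 24 in Col-0 (11.05 ± 0.57, adjusted p = 3.55e-08). Its mta values were 6.30, 1.963 and 2.69 CPM and 359, 708 and 667 CPM (7.31 ± 0.49, adjusted p = 6.86e-07; 7.96 without mta 00 replicate 1). At 24 all mta libraries were below all Col-0 libraries, by a factor of 5.50 in the means (−2.44 ± 0.39, adjusted p = 0.00107), and the interaction was −3.74 ± 0.58 (adjusted p = 0.00405), or −3.10 without that library. At 00 the groups overlapped, and the call of 1.30 ± 0.44 (adjusted p = 0.0452) was lost in 8 of 12 fits that left out 1 library (adjusted p up to 0.233).

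TAT3 showed the largest log2 change of the 9 genes, from 0.829, 0.609 and 0.503 CPM at 00 to 9008, 6662 and 8043 CPM at 24 in Col-0 (13.55 ± 0.71, adjusted p = 4.02e-08). The counts behind the Col-0 values at 00 were 19 to 36 reads a library. It stood at 16.5, 2.85 and 7.46 CPM at 00 and 4866, 3923 and 4039.9 CPM at 24 in mta (8.91 ± 0.59, adjusted p = 6.30e-07; 9.70 without mta 00 replicate 1). The lines did not overlap at either time, with mta higher at 00 (3.78 ± 0.54, adjusted p = 0.000827; 2.98 without that library). At 24 the difference of −0.87 ± 0.42 did not pass (adjusted p = 0.147), and did without mta 00 replicate 1 or 2 (adjusted p = 0.0255 without the first). The interaction of −4.64 ± 0.68 passed (adjusted p = 0.00345) and was −3.85 without mta 00 replicate 1.

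CORI3 stood at 79.8, 64.7 and 49.0 CPM at 00 and 5706, 3662 and 4897 CPM at 24 in Col-0, a 73.8-fold rise (6.20 ± 0.34, adjusted p = 5.83e-08). Its mta values were 303, 142 and 205 CPM at 00 and 3132, 4211 and 3836 CPM at 24, a rise of 4.10 ± 0.31 (adjusted p = 1.56e-06). The lines lay apart at 00 (1.76 ± 0.28, adjusted p = 0.00150) and overlapped at 24 (−0.33 ± 0.28, adjusted p = 0.399), and the interaction was −2.10 ± 0.39 (adjusted p = 0.00951).

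CLH1 stood at 16.6, 24.6 and 20.3 CPM at 00 and 2229, 1775 and 2272 CPM at 24 in Col-0, a 102-fold rise (6.67 ± 0.25, adjusted p = 6.45e-09). In mta it stood at 89.8, 65.7 and 91.9 CPM and 989.9, 1382 and 1346 CPM (3.91 ± 0.22, adjusted p = 2.33e-07). The lines did not overlap at either time: mta was higher by 2.02 ± 0.20 at 00 (adjusted p = 0.000134) and lower by a log2 fold change of −0.74 ± 0.19 at 24 (adjusted p = 0.0155). The second call was lost without Col-0 24 replicate 3 (adjusted p = 0.0599). The interaction of −2.76 ± 0.28 (adjusted p = 0.000489) was −2.69 without mta 00 replicate 1.

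Counted over the group, 8 of 9 genes rose in mta leaves, all but ANAC055, where 59% of genes were called and 30.9% were called higher. At 00, 8 of 9 were higher in mta than in Col-0, all but MYC2 (1.02 ± 0.37, edgeR adjusted p = 0.0605, and 0.31 without mta 00 replicate 1), against 28.7% called and 15.5% called higher. Without mta 00 replicate 1 the count was 6 of 9, with ANAC072 and VSP2 no longer passing. At 24, VSP1, VSP2 and CLH1 were lower in mta, 3 of 9 against 28.7% called and 14.2% called lower, and without mta 00 replicate 1 it was 4 lower and 1 higher. MYC2 (−0.41 ± 0.36), ANAC019 (0.30 ± 0.60) and ANAC072 (−0.23 ± 0.39) did not pass at 24. The difference between the 24 responses passed for the 5 outputs and, by edgeR with no replicate block, for 0 of the 4 factors, against 9.74% of genes, 4.97% with a negative value. All 4 factors had negative values too, from −1.34 ± 0.84 for ANAC055 to −2.84 ± 0.90 for ANAC019 (adjusted p = 0.0687), and 3 of them were under 0.05 before adjustment. DESeq2 called 2 of them, MYC2 and ANAC019, and with the replicate number as a block ANAC019 passed (−2.46, adjusted p = 0.0322). The values of the factors rest on mta 00 replicate 1: without it they were −0.73 for MYC2, −1.26 for ANAC019, −0.04 for ANAC055 and −0.54 for ANAC072, and 0 of 4 passed by edgeR. The outputs passed without it too, at −1.78 for CORI3 to −4.83 for VSP1. Leaf markers summed to 34003 to 46905 CPM in Col-0 and 48217 to 65363 CPM in mta at 00, and to 16132 to 27115 and 31135 to 32882 CPM at 24. Their part in these differences was not tested.

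**Figure D3:**
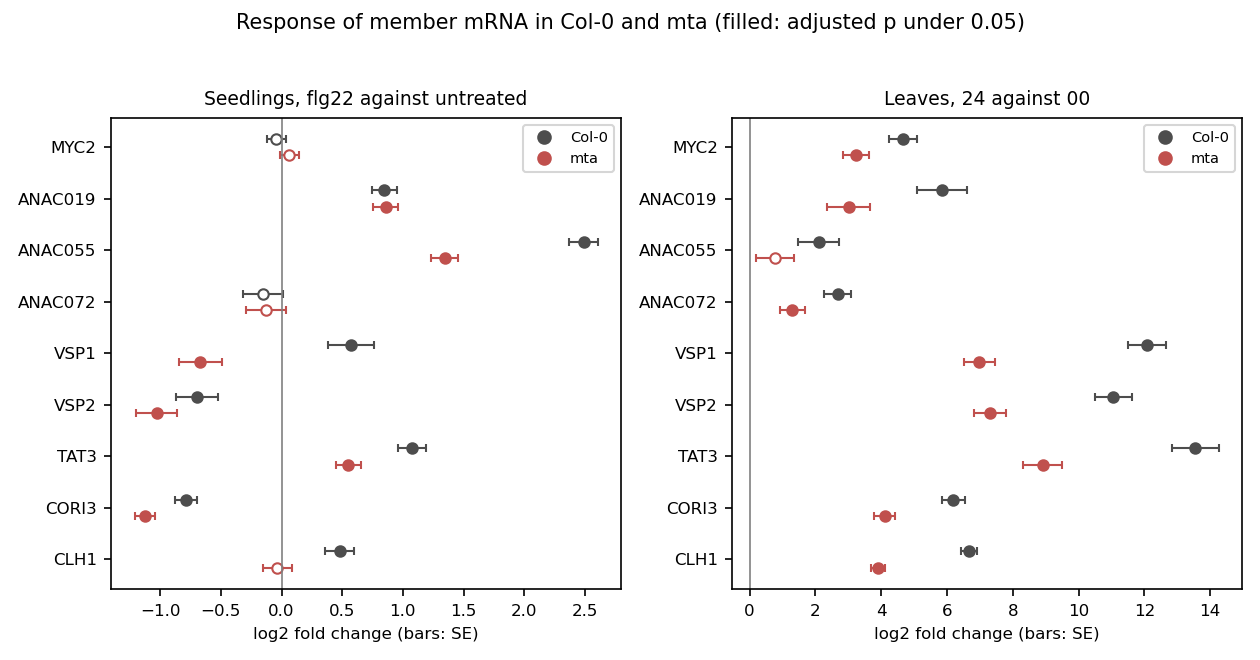
Log2 fold changes of the 9 genes, with SE bars, to flg22 in seedlings and between 00 and 24 in leaves, for Col-0 and mta mRNA; filled points have an adjusted p under 0.05. In leaves the Col-0 values run from 2.0998 for ANAC055 to 13.55 for TAT3, and each mta value lies below its Col-0 value.

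Most listed genes of hormone synthesis and of the JAZ family were also higher at 24 in Col-0 leaves, where 35.6% of all genes tested were called higher. Of 12 JAZ genes 11 rose and 0 fell, with a median log2 fold change of 2.95 beside 0.02 over all genes, led by JAZ10 (8.23 ± 0.75), JAZ5 (6.11 ± 0.64) and JAZ8 (5.23 ± 0.73). All 13 synthesis genes rose (median 3.65), led by AOC3 (7.01 ± 0.76), LOX2 (5.77 ± 0.30) and AOC1 (5.07 ± 0.57). All 4 receptor and corepressor genes rose, led by the adaptor NINJA (1.02 ± 0.09), and of the 6 other bHLH factors 5 rose and 1 fell, led by the repressors JAM1 (2.65 ± 0.20) and JAM2 (2.06 ± 0.15). ICS1 rose by 5.27 ± 0.29 (edgeR adjusted p = 5.79e-08) together with the 4 ATAF-type NAC genes, among them ATAF2 (3.18 ± 0.39). ORA59 of the ERF branch fell (−3.49 ± 1.05, adjusted p = 0.0113), in contrast to its rise in flg22-treated seedlings, a difference between tissues that was not tested.

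In mta leaves 11 of 12 JAZ genes and all 13 synthesis genes rose as well, with medians of 1.97 and 2.37 beside 0.01 over all genes. Among all genes tested, 30.9% were called higher at 24 in mta. At 00, 3 JAZ genes and 8 synthesis genes were higher in mta and 0 were lower, led by JAZ10 (3.01 ± 0.69) and AOC3 (4.43 ± 0.74), while COI1 was lower (−0.59 ± 0.10). At 24 the JAZ genes had a median difference between the lines of −0.13, and 3 of 4 receptor and corepressor genes were lower in mta, with MED25 at −0.61 ± 0.11 and COI1 at −0.43 ± 0.10. The interaction was negative for 6 of 13 synthesis genes, among them AOC3 (−4.67 ± 0.92) and LOX2 (−2.58 ± 0.35), for 1 JAZ gene, JAZ10 (−3.10 ± 0.86), and for 4 of 6 other bHLH factors. It was positive for 0 genes of these 3 lists. Among all genes tested, 15.5% were called higher in mta at 00 and 14.2% lower in mta at 24. The interaction was negative for 4.97% of all genes. Values of the list genes come only from the fit of all leaf libraries. How far they rest on mta 00 replicate 1, which stood apart for MYC2 and the NAC genes, was not tested.

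For each of the 9 genes, the gene with the most similar mRNA profile was sought among 17803 candidates as the smallest root mean square (RMS) difference of log2 levels, centred within tissue, over 24 libraries. CORI3 was closest to LOX2, at 0.277 beside an RMS of 1.94 for CORI3 itself. TAT3 was closest to NATA1 (0.406 beside 3.85), ANAC072 to the bZIP factor gene GBF3 (0.228 beside 0.844) and ANAC055 to the glutamate dehydrogenase gene GDH2 (0.292 beside 1.104). The 9 genes themselves were not candidates, so VSP1 and VSP2 could not be matched to each other. Among the candidates, VSP1 was closest to ARD3 (0.782 beside 3.03) and VSP2 to NUDT6 (0.806 beside 3.16). MYC2 was closest to YLS2 (0.359), ANAC019 to CYP71B23 (0.345) and CLH1 to SARD1 (0.407). These values are descriptions over libraries that share the same 8 groups.

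GMUCT gave the uncapped RNA of the same genes in all 3 seedling lines, in RPM. In 35SALKBH10B, flg22 replicate 3 stood apart from replicates 1 and 2. Its values for MYC2, VSP1, VSP2 and CLH1 lay inside the range of the untreated libraries of that line. Values of this line without that library are given beside those with it where they were called either way. ALKBH10B itself stood at 440.3 RPM on average in untreated 35SALKBH10B and at 37.0 RPM in Col-0.

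Uncapped MYC2 stood at 118, 94.3 and 107 RPM in untreated Col-0 and 65.3, 72.4 and 66.8 RPM after flg22. The mta values were 95.2, 77.9 and 69.6 RPM and 64.1, 56.4 and 54.6 RPM. In 35SALKBH10B they were 63.0, 65.5 and 58.6 RPM untreated and 126, 105 and 62.1 RPM after flg22. Treated Col-0 libraries were below and 2 of 3 treated 35SALKBH10B libraries above the untreated ones of their line. On the log2(RPM + 1) scale, which understates changes of low values, MYC2 fell by 0.63 ± 0.23 in Col-0 (limma adjusted p = 0.0271) and was lower in untreated 35SALKBH10B than in Col-0 by −0.76 ± 0.23 (adjusted p = 0.0368). The flg22 response of 35SALKBH10B exceeded that of Col-0 by 1.21 ± 0.32 (adjusted p = 0.0180), or 1.51 without flg22 replicate 3. Its rise with flg22 in 35SALKBH10B was 0.58 ± 0.23 (adjusted p = 0.0743), or 0.88 without that library (adjusted p = 0.00107), and under flg22 it exceeded Col-0 by 0.46 ± 0.23 (adjusted p = 0.141), or 0.75 (adjusted p = 0.00638). When reads recovered from the RPM were scaled by TMM, the Col-0 change was −0.10 and these 3 MYC2 calls were lost (adjusted p = 0.0826 for the interaction). The first 2 were also lost in 4 and 7 of 18 fits that left out 1 library.

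Uncapped ANAC055 rose with flg22 in each line. It went from 9.07, 8.04 and 11.8 to 33.3, 37.9 and 36.9 RPM in Col-0, from 25.7, 23.3 and 27.9 to 59.2, 64.3 and 71.7 RPM in mta, and from 5.49, 4.29 and 6.83 to 46.1, 35.3 and 7.64 RPM in 35SALKBH10B. All treated libraries exceeded the untreated ones of their line, the third of 35SALKBH10B only narrowly. The log2 fold changes were 1.81 ± 0.40 (limma adjusted p = 0.00131), 1.31 ± 0.40 (adjusted p = 0.0279) and 1.93 ± 0.40 (adjusted p = 0.00686), the last 2.68 without flg22 replicate 3. The call in mta was lost without any 1 of its 6 libraries (adjusted p up to 0.0864), and that in 35SALKBH10B without its flg22 replicate 1 or 2 (adjusted p up to 0.0525). The interaction for mta was −0.50 ± 0.57 and did not pass. That for 35SALKBH10B rests on flg22 replicate 3: it was 0.11 ± 0.57 with it (adjusted p = 0.920) and 0.86 ± 0.28 without it, when it passed (adjusted p = 0.0406). Untreated 35SALKBH10B lay below untreated Col-0 by a log2 difference of −0.70 ± 0.40 (adjusted p = 0.267), a call without that library (adjusted p = 0.0145).

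Uncapped ANAC019 stood at 23.6, 15.4 and 22.5 RPM untreated and 17.8, 24.6 and 24.9 RPM after flg22 in Col-0, groups that overlapped. It rose in mta, from 25.0, 18.6 and 20.2 to 33.2, 37.7 and 41.4 RPM (0.79 ± 0.22, limma adjusted p = 0.0162). It also rose in 35SALKBH10B, from 19.3, 16.8 and 16.6 to 31.6, 33.0 and 22.8 RPM (0.68 ± 0.22, adjusted p = 0.0368; 0.84 without flg22 replicate 3). These calls were lost in 4 and 5 of 18 fits that left out 1 library. ANAC072 ranged from 27.9 to 43.0 RPM over all 18 libraries and passed in no GMUCT comparison.

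Uncapped VSP1 moved in opposite directions in 2 of the lines. It fell in mta, from 101, 109 and 139.8 RPM to 29.6, 42.5 and 40.4 RPM (limma log2 fold change −1.62 ± 0.43, adjusted p = 0.0136). In 35SALKBH10B it rose from 24.9, 39.9 and 44.4 RPM to 139, 219.5 and 39.5 RPM (1.57 ± 0.43, adjusted p = 0.0204; 2.27 without flg22 replicate 3). Col-0 stood at 43.3, 69.2 and 39.4 RPM and 39.6, 27.8 and 23.8 RPM, with overlap (−0.70 ± 0.43, adjusted p = 0.182; 0.0397 without 35SALKBH10B flg22 replicate 3, with the same value and a smaller spread). The call in mta was lost without mta flg22 replicate 1 or untreated replicate 3 (adjusted p up to 0.0596), and that in 35SALKBH10B without flg22 replicate 1 or 2 or untreated replicate 1 (adjusted p up to 0.129). The difference between mta and 35SALKBH10B was not tested. Under flg22, 35SALKBH10B exceeded Col-0 by 1.81 ± 0.43 (adjusted p = 0.00462; 2.51 without flg22 replicate 3), with 1 of its 3 libraries inside the Col-0 range, and its flg22 response exceeded that of Col-0 by 2.27 ± 0.61 (adjusted p = 0.0199; 2.98 without flg22 replicate 3; 2.22 with TMM-scaled reads, adjusted p = 0.0313).

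Uncapped VSP2 was low, at 4.80, 5.47 and 3.62 RPM in untreated Col-0 and 2.68, 2.32 and 2.13 RPM after flg22. The value of 5.47 RPM, from the shallowest library, stands for 17 reads. In mta it stood at 6.69, 8.24 and 8.67 RPM and 2.61, 2.93 and 3.19 RPM, and in 35SALKBH10B at 6.27, 5.42 and 7.96 RPM and 14.8, 16.95 and 6.10 RPM. It fell in Col-0 (−0.73 ± 0.27, limma adjusted p = 0.0340) and in mta (−1.18 ± 0.27, adjusted p = 0.00634), and 2 of 3 treated 35SALKBH10B libraries lay above the untreated ones (0.76 ± 0.27, adjusted p = 0.0579). Without flg22 replicate 3 the change in 35SALKBH10B was 1.17 ± 0.20 and passed (adjusted p = 0.000208). The call in Col-0 was lost without Col-0 flg22 replicate 2 or 3 or Col-0 untreated replicate 1 or 2 (adjusted p up to 0.0900), and with TMM-scaled reads (−0.37). Under flg22 all 3 libraries of 35SALKBH10B exceeded those of Col-0, by 1.91 ± 0.27 (adjusted p = 8.93e-05), or 2.32 without that library. The interaction for 35SALKBH10B was 1.48 ± 0.39 (adjusted p = 0.0171), 1.90 without that library, and 1.44 with TMM-scaled reads, where it did not pass (adjusted p = 0.0819).

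Uncapped CORI3 fell from 53.7, 61.8 and 61.2 to 22.3, 26.4 and 25.0 RPM in Col-0 (limma log2 fold change −1.23 ± 0.20, adjusted p = 0.000124). It fell from 99.8, 92.0 and 76.9 to 47.3, 40.9 and 41.8 RPM in mta (−1.03 ± 0.20, adjusted p = 0.00262). In 35SALKBH10B the groups overlapped, at 48.1, 35.9 and 37.3 RPM and 58.8, 36.7 and 52.3 RPM (0.26 ± 0.20, adjusted p = 0.369). The response of 35SALKBH10B differed from that of Col-0 by 1.49 ± 0.29 (adjusted p = 0.00314; 1.44 without flg22 replicate 3; 1.104 with TMM-scaled reads, adjusted p = 0.00890). Under flg22, CORI3 was higher in 35SALKBH10B (0.95 ± 0.20, adjusted p = 0.00234; 0.89 without that library) and in mta (0.79 ± 0.20, adjusted p = 0.0442) than in Col-0. The call for mta was lost with TMM-scaled reads (adjusted p = 0.0722) and in 13 of 18 fits that left out 1 library.

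Uncapped TAT3 stood at 12.1, 10.3 and 8.91 RPM and 14.3, 19.2 and 19.1 RPM in Col-0, at 24.3, 23.04 and 19.8 RPM and 41.4, 44.5 and 45.9 RPM in mta, and at 12.7, 9.23 and 6.37 RPM and 46.6, 47.1 and 14.0 RPM in 35SALKBH10B. Treated libraries were above untreated ones in every line. The rise passed in 35SALKBH10B (1.69 ± 0.34, limma adjusted p = 0.00589; 2.24 without flg22 replicate 3) and neither in mta (0.95 ± 0.34, adjusted p = 0.0521) nor in Col-0 (0.70 ± 0.34, adjusted p = 0.0943). Without 35SALKBH10B flg22 replicate 3 all 3 rises passed, at the same values in mta and Col-0 with a smaller spread (adjusted p = 0.00245 and 0.00894). The excess of 35SALKBH10B over Col-0 under flg22 (0.82 ± 0.34, adjusted p = 0.0753) and its interaction (0.99 ± 0.48, adjusted p = 0.171) then passed at 1.38 and 1.55 (adjusted p = 0.000469 and 0.00309). Under flg22 TAT3 was higher in mta than in Col-0 (1.29 ± 0.34, adjusted p = 0.0475). That call did not pass with TMM-scaled reads (adjusted p = 0.0758) or in 14 of 18 fits that left out 1 library.

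Uncapped CLH1 overlapped between treated and untreated libraries in Col-0, at 67.9, 30.9 and 59.1 RPM and 53.5, 59.5 and 60.0 RPM, and in mta, at 113, 118 and 92.3 RPM and 73.5, 90.2 and 93.7 RPM. In 35SALKBH10B it rose from 67.0, 57.2 and 62.0 to 172, 149 and 64.5 RPM (0.92 ± 0.31, limma adjusted p = 0.0453; 1.36 without flg22 replicate 3). This did not pass in 14 of 18 fits that left out 1 library. Under flg22 CLH1 was higher in 35SALKBH10B than in Col-0 by 1.03 ± 0.31 (adjusted p = 0.0196; 1.46 without flg22 replicate 3), a call lost without 35SALKBH10B flg22 replicate 1 or 2 or Col-0 flg22 replicate 1 (adjusted p up to 0.0868). The interaction of 0.72 ± 0.44 (adjusted p = 0.282) passed at 1.16 without flg22 replicate 3 (adjusted p = 0.0290).

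**Figure D4:**
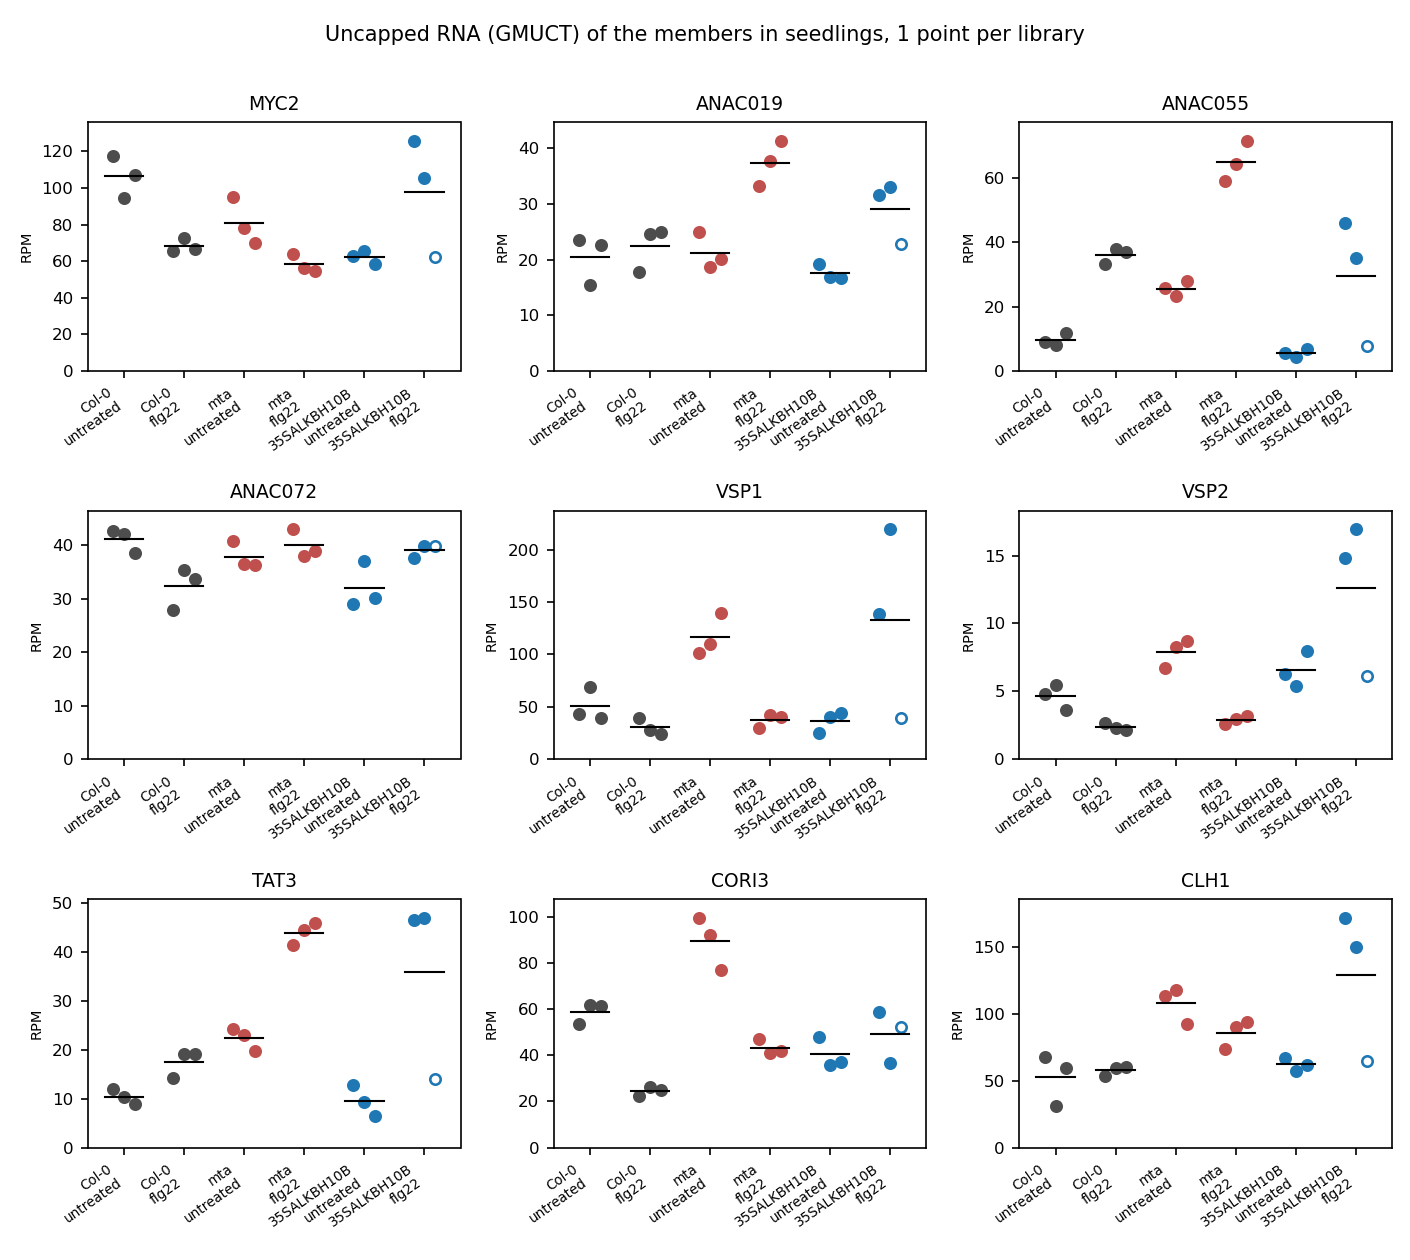
Uncapped RNA of the 9 genes by GMUCT, in RPM on linear axes from 0, 1 panel per gene, for Col-0, mta and 35SALKBH10B, untreated and after flg22; points are libraries, bars are means of 3, and the open circle is 35SALKBH10B flg22 replicate 3. VSP1 after flg22 stood at 29.6 to 42.5 RPM in mta and at 139 and 219.5 RPM in the first 2 libraries of 35SALKBH10B, with the third at 39.5 RPM.

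Counted over the group, flg22 changed uncapped RNA of 4 of 9 genes in Col-0, 1 up and 3 down, where limma called 50.4% of 19277 genes, 10.3% up and 40.1% down. It changed 5 of 9 in mta, 2 up and 3 down, against 21.8% of genes, 6.03% up and 15.8% down. It raised 5 of 9 in 35SALKBH10B, against 19.5% in either direction and 9.45% up. Without 35SALKBH10B flg22 replicate 3 these counts were 2 up and 4 down, 3 up and 4 down, and 7 up. Untreated mta differed from Col-0 in 0 of 9 by limma (3.47% of genes), with 6 of 9 under 0.05 before adjustment, 3 of 9 by edgeR on recovered reads and 5 of 9 without that library. The values with all libraries ran from −0.40 ± 0.23 for MYC2 to 1.34 ± 0.40 for ANAC055, with CLH1 at 1.09 ± 0.31 (adjusted p = 0.0583), VSP1 at 1.22 ± 0.43 (adjusted p = 0.121) and TAT3 at 1.04 ± 0.34 (adjusted p = 0.0938). Untreated 35SALKBH10B differed in 1 of 9, lower (11.9% of genes, 8.99% lower), and without that library in 2. Under flg22, mta exceeded Col-0 in 2 of 9 (2.64% of genes, 2.33% higher) and 35SALKBH10B did so in 4 of 9 (28.4% of genes, 20.2% up), or in 4 and 6 of 9 without that library. The flg22 response of mta differed from that of Col-0 in 0 of 9 by limma (1.57% of genes), with 1 of 9 under 0.05 before adjustment and 0 by edgeR. That of 35SALKBH10B did so in 4 of 9, all positive (14.6% of genes, 12.1% positive), and in 7 of 9 without that library.

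The scaling of GMUCT bears on these signs. RPM divides by the sum over a library, and the median log2 fold change with flg22 over all genes was −0.48 in Col-0, −0.20 in mta and −0.10 in 35SALKBH10B. With TMM on recovered reads it was −0.11, −0.03 and 0.01. The share of called genes that were higher moved from 20.4% to 50.7% in Col-0, from 27.6% to 50.6% in mta and from 48.5% to 66.9% in 35SALKBH10B. Between untreated lines it moved from 56.2% to 71.5% for mta and from 24.6% to 52.7% for 35SALKBH10B, and under flg22 from 88.4% to 48.2% and from 71.1% to 52.1%. For the differences between the responses it moved from 65.3% to 25.6% for mta and from 82.9% to 47.0% for 35SALKBH10B. With TMM, ANAC019 (0.65) and TAT3 (1.29) also rose in Col-0, and ANAC055 (1.51), CORI3 (0.70) and CLH1 (1.13) were higher in untreated mta.

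Uncapped RNA relative to mRNA was tested as the interaction of library kind with flg22. In Col-0 it fell for MYC2 (−0.58 ± 0.18, limma adjusted p = 0.0349), ANAC055 (−0.58 ± 0.19, adjusted p = 0.0465) and VSP1 (−1.203 ± 0.33, adjusted p = 0.0210), 3 of 9 genes where 15.7% of 17355 genes were called, 15.3% with a fall. For VSP1, mRNA had risen while the change of uncapped RNA had not passed, and for ANAC055 both had risen. The mRNA side of the ratio is the seedling count, which for MYC2 and ANAC055 is not separated from features on the other strand. The median over all genes was −0.40, and with TMM-scaled reads it was 0.10. On that scale 0 of 9 genes passed, with MYC2 at −0.03, ANAC055 at −0.06 and VSP1 at −0.66, and 203 genes in place of 2719 were called, so these 3 calls rest on the scaling by RPM. In mta 0 of 9 passed (1.04% of genes), with 3 of 9 under 0.05 before adjustment and 0 with TMM-scaled reads. In both lines, untreated mRNA carries the 4 h label of the treated libraries, while untreated GMUCT does not. Any change of uncapped RNA over that time would enter the interaction of library kind with flg22. Its size was not tested. mRNA of 35SALKBH10B is not analysed here.

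Peaks of m6A immunoprecipitation were deposited per library, and a gene was counted where a summit lay in its locus. Peak heights are the authors' fold enrichment, and with 2 or 3 libraries a group an exact permutation test between 2 groups could not go under a p of 0.10, so the peaks are described only. In untreated Col-0 seedlings, where 2 lists were used, 4 of 9 genes had a peak in every library (48.1% of genes tested for mRNA). In flg22-treated Col-0 it was 5 (42.1%). It was 9 in untreated mta (47.2%) and 7 in flg22-treated mta (37.5%), and 3 in untreated (42.5%) and 7 in flg22-treated 35SALKBH10B (41.6%). Untreated mta, the line named for the writer subunit, was the group in which all 9 genes had a peak in every library. Among peaks with −log10 q of 5 or more the count was 6 in untreated and 5 in flg22-treated mta.

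MYC2 and ANAC072 carried a peak in all 17 seedling libraries. In MYC2 a summit lay 1819 to 1842 bp from the gene start in 16 of 17 libraries, with the highest peak of a library at 3.08 to 6.67. In ANAC072 a summit lay 1291 to 1435 bp from the start in 17 of 17, with peaks there of 3.04 to 9.36. ANAC019 had a summit 723 to 886 bp from its start in 14 libraries and another at 163 to 174 bp in 8. Each of these 3 factors also had summits elsewhere in some libraries, in 6, 4 and 5 places in all for MYC2, ANAC072 and ANAC019. ANAC055 varied by group, with a peak in 0 of 2 untreated and 1 of 3 flg22-treated Col-0 libraries, in 3 of 3 and 2 of 3 of mta, and in 0 of 3 and 2 of 3 of 35SALKBH10B.

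VSP1 showed the sharpest contrast between groups. Its locus had a peak in 0 of 2 untreated Col-0 libraries and in 0 of 3 untreated 35SALKBH10B libraries. It had one in 3 of 3 libraries of each of the other groups, at 3.21 to 5.36 in flg22-treated Col-0, 5.74 to 6.92 in untreated mta, 4.65 to 6.71 in flg22-treated mta and 9.77 to 11.6 in flg22-treated 35SALKBH10B. A summit lay 435 to 464 bp from the gene start in 11 of these libraries. VSP2 had a peak in 3 of 3 untreated mta libraries (3.22 to 4.53) and 2 of 3 flg22-treated 35SALKBH10B libraries (5.36 to 5.82), and in 0 of the other 12. VSP1 mRNA averaged 8.95 CPM in untreated Col-0 and 13.1 to 23.8 CPM in the flg22-treated Col-0 and both mta groups. The part of transcript level in whether a peak was listed was not tested.

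The other outputs had peaks in most seedling libraries. TAT3 had a summit 2128 to 2225 bp from its start in 16 of 17 libraries and a second at 176 to 245 bp in 12. CLH1 had one at 307 to 390 bp in 11 libraries, and CORI3 one at 402 to 410 bp in 9. In untreated 35SALKBH10B, CLH1 had a peak in 1 of 3 libraries and TAT3 in 2 of 3, against 3 of 3 after flg22 for each. In untreated Col-0, CLH1 had one in 1 of 2 libraries, TAT3 in 2 of 2 and CORI3 in 1 of 2. CORI3 had a peak in 3 of 3 libraries of 35SALKBH10B in both states, at 5.31 to 7.49 untreated and 3.33 to 4.37 after flg22.

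**Figure D5:**
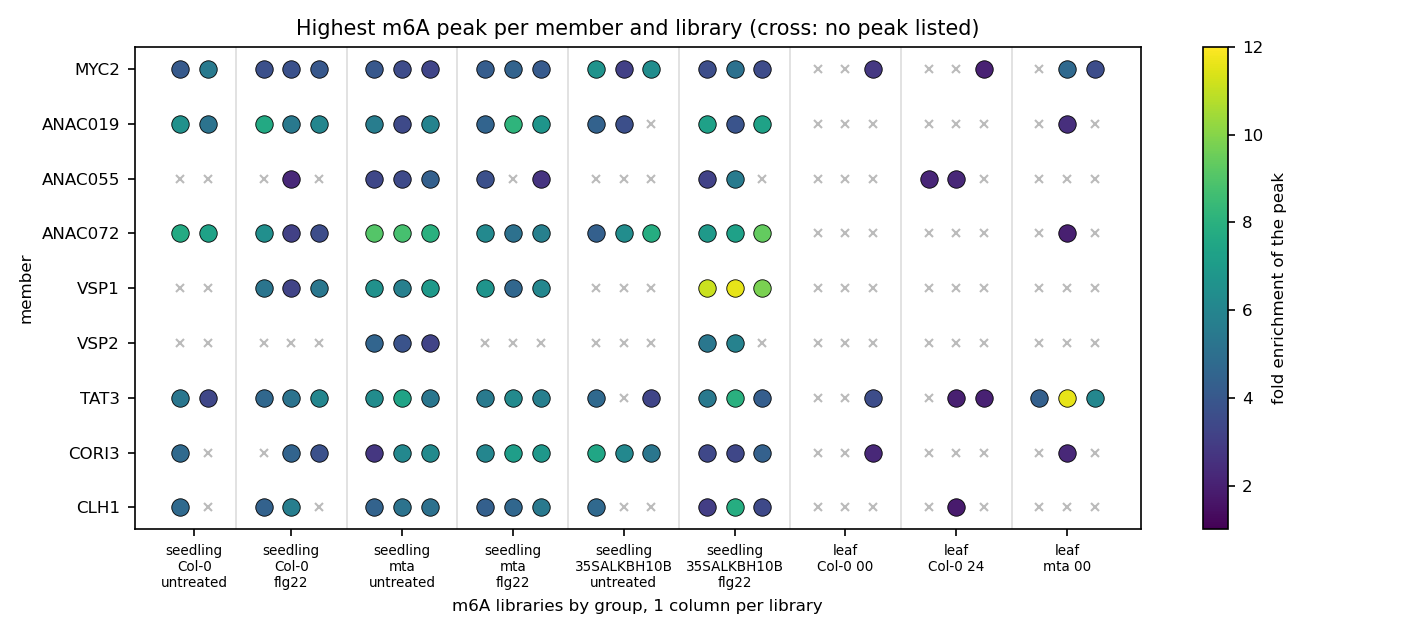
m6A peaks of the 9 genes by library; the colour of a dot is the highest fold enrichment of a peak with its summit in the locus, and a cross marks a library with no such peak listed. VSP1 has crosses in all untreated Col-0 and 35SALKBH10B seedling libraries and dots in the other 12 seedling libraries.

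In leaves 0 of 9 genes had a peak in every library of Col-0 at 00 (35.5% of genes) or at 24 (38.3%), and only TAT3 did in mta at 00 (25.7%), at 4.32 to 11.6. VSP1 and VSP2 had 0 peaks in all 9 leaf libraries. Their mRNA was 1281 CPM or more in Col-0 at 24 and 0.161 to 6.30 CPM in the 2 lines at 00. The part of transcript level was not tested. Leaf peak lists held 16125 to 29436 peaks and reached weaker peaks than the seedling lists of 13248 to 19749, so the tissues are not compared. m6A of mta leaves at 24 is not analysed here.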

How the data were processed

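The 9 genes and the pathway lists were chosen with earlier results of these data known. For mRNA, the authors deposited whole read counts per feature, with STAR and TAIR10 named per the submitters' processing notes and featureCounts 2.0.1 per the file headers for seedlings. For GMUCT, the authors deposited RPM, scaled by the sum over genes, and 100% of values divided back into whole reads within 0.01. For m6A, the authors deposited MACS2 peaks per library and strand with fold enrichment as a ratio and −log10 p and q per the file headers' layout. A peak was assigned to the member gene in whose locus its summit lay, on the strand opposite to the deposited strand label. Peaks labelled plus were thus given to genes of the minus strand, and those labelled minus to genes of the plus strand. Of 75 samples in 25 groups of 3, 12 seedling mRNA, 12 leaf mRNA, 18 GMUCT and 26 m6A libraries were used, and 12 further columns of counts, named in a way that fits no single sample, were not. Features that are not gene loci held 30.5% to 34.7% of seedling and 0.147% to 0.254% of leaf counts and stayed out of library sizes.

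Tests were run in R 4.3.3. edgeR 4.0.16 fitted counts by quasi-likelihood per tissue with TMM and filterByExpr, and CPM are TMM-scaled. limma 3.58.1 fitted log2(RPM + 1) of genes at 1 RPM or more in at least 3 libraries, and the interaction of library kind with flg22 for uncapped RNA relative to mRNA. p-values were adjusted by Benjamini-Hochberg over all genes tested, with a threshold of 0.05. Scripts were tested on simulated data. Alternatives were DESeq2 1.42.0, RLE scaling, no filter, all annotated features, pseudocount 0.5, edgeR on recovered reads, a replicate block, each library left out, and other peak rules. All 9 genes were tested in every comparison and enter its counts, with values for those described, and from each list the text names at most the 3 called genes with the largest change. Names came from RefSeq, where 86 of 86 list genes matched. Same-numbered libraries deviated together, with every correlation over 0.1, for 24 against 00 in mta (0.365, 0.312 and 0.160) and for mta against Col-0 at 24 (0.410, 0.223 and 0.259), a pairing that comes from the data and not from the labels. No other comparison of 2 groups had every correlation over 0.1, but some were mixed. In leaves, mta against Col-0 at 00 had 0.404, −0.036 and 0.206, and 24 against 00 in Col-0 had 0.260, 0.120 and −0.055.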

Additional observations from a re-analysis of the deposited data

Results flagged for a closer look

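The values below mark genes whose response to the same contrast differed between 2 lines by a test of the difference itself. In seedling mRNA, the flg22 response of mta minus that of Col-0 was −1.15 for ANAC055, −1.24 for VSP1, −0.52 for TAT3, −0.34 for CORI3 and −0.51 for CLH1 on the log2 scale. VSP1 rose in Col-0 and fell in mta, CORI3 fell in both lines, and CLH1 passed only in Col-0. The values for CORI3 and CLH1 passed in 4 and 6 of 12 fits that left out 1 library. In leaf mRNA, the 24 response of mta minus that of Col-0 was −5.10 for VSP1, −3.74 for VSP2, −4.64 for TAT3, −2.10 for CORI3 and −2.76 for CLH1, and each passed in all 16 alternatives. Those of VSP1, VSP2 and TAT3 draw on Col-0 values at 00 of 7 to 76 reads a library. In GMUCT, the flg22 response of 35SALKBH10B minus that of Col-0 was 1.21 for MYC2, 2.27 for VSP1, 1.48 for VSP2 and 1.49 for CORI3, and with TMM-scaled reads MYC2 and VSP2 did not pass.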

How the results depend on the processing

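Of 189 results for single genes, 89 passed the threshold, and 61 of these passed in every alternative: 23 of 28 in seedling mRNA, 28 of 33 in leaf mRNA, 10 of 25 in GMUCT and 0 of 3 for uncapped RNA relative to mRNA. No called value changed its sign in any alternative. In GMUCT, edgeR with TMM on recovered reads called 3 genes in untreated mta, 0 in untreated 35SALKBH10B, 0 for mta under flg22 and 2 for the interaction of 35SALKBH10B. Without a filter on low RPM, 2 were called in untreated 35SALKBH10B and 1 for mta under flg22, where a pseudocount of 0.5 and the replicate block each gave 1. TMM-scaled reads, chosen after seeing the data, gave 0 for uncapped RNA relative to mRNA in Col-0. With −log10 q of 5 or more, peaks in every library were counted for 4 genes in flg22-treated 35SALKBH10B, 3 in flg22-treated Col-0, 6 in untreated mta and 5 in flg22-treated mta. The causes were not tested.

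Leaving out 1 library gave 6 to 7 called genes for flg22 in Col-0 seedlings, 6 to 6 in mta, 6 to 7 untreated, 2 to 3 under flg22 and 3 to 5 for the interaction. In leaves it gave 9 to 9, 7 to 9, 6 to 9 at 00, 2 to 5 at 24 and 5 to 8 for the interaction. In GMUCT it gave 2 to 6 in Col-0, 2 to 7 in mta and 1 to 7 in 35SALKBH10B with flg22, 0 to 5 and 0 to 2 untreated, 0 to 4 and 3 to 6 under flg22, and 0 to 0 and 4 to 7 for the interactions. Uncapped relative to mRNA it gave 0 to 5 and 0 to 0. For genes with a peak in every leaf library it gave 0 to 1 in Col-0 at 24 and 1 to 2 in mta at 00. Testing all annotated features gave 18663 calls for flg22 in Col-0 seedlings in place of 11669, and DESeq2 gave 2974 for the leaf interaction in place of 1833. The replicate block raised the latter to 2899, with ANAC019 passing (−2.46, adjusted p = 0.0322). The interaction draws on comparisons whose numbers paired and on others where the correlations were mixed. At 00, where the correlations were 0.404, −0.036 and 0.206, the block ended the calls of ANAC072 (adjusted p = 0.0646) and VSP2 (adjusted p = 0.0508). In the paired leaf comparisons it changed no call other than the 2 of ANAC055. Counts of 7 to 20 reads behind VSP1, 19 to 36 behind TAT3 and 41 to 76 behind VSP2 in Col-0 leaves at 00 limit precision. Unknown depth behind m6A peaks limits it too.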
